A study of Mus musculus with 16 samples.

Results

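Interferon-stimulated genes are the genes that a cell switches on when it senses an interferon, and 58 of them were followed here in sorted mouse microglia. Members were listed by gene symbol from general knowledge of the interferon response, with earlier results of these data known. Counts of members beside all genes therefore describe this list and do not test it. Members were kept where the gene table gave at least 1 CPM in at least 4 of the 16 libraries. CPM is reads scaled to a common total in each library, and 58 of the 20267 genes in the table are described. All 58 listed genes passed, 42 of them with at least 1 CPM in all 16 libraries and 6 in under 12. Microglia, the resident macrophages of the brain, had been sorted as CD11b+/P2ry12+ cells from 4 groups of 4 mice, about 10000 cells a mouse, the 4 with the highest RNA integrity of 6 per genotype. WT p38+/+ and WT p38KO mice lacked the APPswe/PS1dE9 transgenes, and AD p38+/+ and AD p38KO mice carried them. Every mouse was on the C57BL/6J background with both Mapk14 alleles floxed at exon 1, ate tamoxifen diet for 4 weeks from 5 months of age, and was taken at 11 months. The p38KO mice carried Cx3cr1-creERT2 on 1 allele, which deletes p38α in microglia and replaces that copy of Cx3cr1, while p38+/+ mice had no Cre, so that p38α loss and the Cre allele cannot be told apart. The labels name 11 mice as male and 5 as female (WT p38+/+ mouse 1, WT p38KO mice 1 and 2, AD p38+/+ mouse 1 and AD p38KO mouse 1).

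Type I interferons bind a receptor made of IFNAR1 and IFNAR2, whose kinases switch on a complex that holds STAT2 and IRF9. This complex binds the interferon-stimulated response element (ISRE) in promoters, and interferon gamma acts at the gamma-activated site (GAS). The induced proteins block viral RNA and membrane fusion, sense nucleic acids, or feed back on the pathway. In the brain, microglia with high levels of these genes are known from ageing and from amyloid models.

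Many members carry letters that match the ISRE just before or after their start. In RefSeq promoters of GRCm38.p6 (300 bases each, 250 before and 50 after the start), 45 of the 58 members had an entry. The ISRE core (GAAA, any 2 bases, GAAA), searched on both strands with overlapping matches allowed, was present in 25 of these 45 (55.6%), against 3.99% of all 27025 genes with an entry. The GAS core (TTC, any 3 bases, GAA), which reads the same on both strands, was present in 8 (17.8%), against 9.55% of all genes, and 6 members held both. The 30-base windows below are shown because they belong to the 4 members with a core whose difference between AD and WT mice had the smallest p. Capitals mark the bases of a core, and each window is printed on the minus strand, on which its core reads in that direction. Capitals at the right end of the Ifit1 and Ifitm3 windows belong to another core.
Ifitm2, chr7:140955988-140956017: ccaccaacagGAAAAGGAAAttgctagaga
Ifit1, chr19:34640794-34640823: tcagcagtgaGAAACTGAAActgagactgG
Ifitm3, chr7:141010723-141010752: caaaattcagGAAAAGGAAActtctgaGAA
Bst2, chr8:71537583-71537612: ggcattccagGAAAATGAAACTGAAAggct
The windows of Ifitm2, Ifit1 and Bst2 lie before the annotated gene (GENCODE M21), and that of Ifitm3 lies inside it. Ifitm2 and Ifitm3, neighbours on chromosome 7, share the same 10 letters in their cores.

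Additional windows, chosen after the values were seen, show how a core can repeat, be copied between genes, or sit before a gene with a negative difference. Isg15 has 3 overlapping cores, the windows of Ifit3 and Ifit3b are identical, and Gbp7 had a negative fold change between AD and WT mice.
Isg15, chr4:156200871-156200900: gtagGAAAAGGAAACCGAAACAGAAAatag
Ifit3, chr19:34583363-34583392: accagaagagGAAAGTGAAActtaccactg
Ifit3b, chr19:34607759-34607788: accagaagagGAAAGTGAAActtaccactg
Gbp7, chr3:142530273-142530302: atggagaactGAAACTGAAActgcacacac
Over both p38 genotypes, the median log2 fold change of AD against WT mice was 0.31 for the 25 members with a core and 0.27 for the 20 without one. Of those with a core 21 of 25 had a positive fold change, and of those without one 18 of 20. Zbp1, Oas2, Rtp4, Ifi204, Parp14, Usp18, Ifi27l2a, Dhx58, Mx1, Ly6a, Mx2, Ly6e and Parp9 had no entry.

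The deletion and the depth were checked first. ENSMUST00000062694, the Mapk14 transcript that encodes isoform 1, lay between 0.0575 and 0.248 CPM in the 8 p38KO mice and between 47.1 and 82.6 CPM in the 8 p38+/+ mice. In each library 1 read was worth 0.0609 to 0.0814 CPM, so that a floor of 3 reads (counting error only) lay at 0.183 to 0.244 CPM. Members below about 1 CPM therefore rest on few reads. AD p38KO libraries listed fewer genes above 0 (15487 to 16855) than the other 12 (16992 to 18058). The 10 markers of microglia summed to 60639 to 75697 CPM (all 10 measured in every group). Those of border-associated macrophages summed to 22.8 to 139.7 CPM, of endothelial and mural cells to 16.8 to 48.4 CPM, and of lymphocytes and NK cells to 13.9 to 38.4 CPM. Of 12 lymphocyte and NK cell markers 5 had a row in the table, and of 11 monocyte and granulocyte markers 5 had one (357.5 to 538.8 CPM).

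All 58 members were fitted with the other genes tested (13912 in all) by limma-trend on log2(CPM + 0.5), and a gene is called at a Benjamini-Hochberg adjusted p under 0.05 over all genes. AD microglia carried more RNA of a few interferon-stimulated genes than WT microglia. With p38α present, 2 members rose, Ifi27l2a and Ifitm2, and 0 fell (limma; 0.359% of all genes tested rose). Averaged over both p38 genotypes (the APP/PS1 main effect), 3 members rose, Ifi27l2a, Rtp4 and Ifitm2, and 0 fell, beside 0.927% of all genes that rose and 0.101% that fell. Without p38α, 0 members were called between AD and WT mice (limma), beside 0.244% of all genes called higher and 0.0791% called lower. There 8 members were higher and 1 lower at an unadjusted p under 0.05 in limma, beside 3.76% and 5.8% of all genes. Loss of p38α gave 0 member calls in AD and 0 in WT mice, beside 0.0503% and 0.00719% of all genes called in either direction. In bulk RNA, more RNA per cell and more cells with a high level cannot be told apart.

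Ifi27l2a, a small interferon-induced protein of the mitochondrial membrane (chromosome 12, 103442167 to 103443680), had the largest fold change of the 58 between AD and WT mice with p38α. In WT p38+/+ mice it was listed at 3.12, 3.23, 5.62 and 3.02 CPM, and in AD p38+/+ mice at 47.8, 13.4, 18.3 and 17.2 CPM. All 4 AD values lay above all 4 WT values. The log2 fold change was 2.40 (SE 0.46, limma adjusted p = 0.0299), and the exact permutation test of 4 mice against 4 gave p = 0.0286, the smallest it can give. In p38KO mice it was 6.26, 19.4, 5.83 and 8.46 CPM without and 53.2, 28.1, 16.4 and 11.7 CPM with the APP/PS1 transgenes. WT p38KO mouse 2 exceeded AD p38KO mice 3 and 4, so these groups overlapped, with a log2 fold change of 1.34 (SE 0.46, limma adjusted p = 0.331). WT p38KO mice also all lay above WT p38+/+ mice, with a log2 fold change of 1.18 (SE 0.46, limma adjusted p = 1). Over both p38 genotypes the log2 fold change of Ifi27l2a between AD and WT mice was 1.87 (SE 0.33, limma adjusted p = 0.00493).

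Ifitm2 (chromosome 7, 140954837 to 140955987) encodes a membrane protein that hinders fusion of viruses with endosomes. It was 2.03, 2.31, 1.44 and 1.61 CPM in WT p38+/+ mice and 12.4, 6.07, 5.13 and 6.81 CPM in AD p38+/+ mice. These groups did not overlap, and the log2 fold change was 1.73 (SE 0.31, limma adjusted p = 0.0160). In p38KO mice the values of Ifitm2 drew together, at 4.72, 3.90, 2.01 and 3.01 CPM in WT and 5.64, 4.46, 3.57 and 5.14 CPM in AD mice. Their log2 fold change was 0.45 (SE 0.31, limma adjusted p = 0.687). The difference between these fold changes, the interaction, was -1.28 (95% interval -2.21 to -0.35, limma unadjusted p = 0.00964, adjusted p = 1.00), which did not pass over all genes. Of the 100-base windows of its main transcript, 34.9% also occur in another gene, mostly Gm45717, so its reads could be split between copies.

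Rtp4 (chromosome 16, 23520291 to 23614222), a receptor transporter protein that chaperones G protein-coupled receptors and is strongly induced by type I interferon, had similar fold changes in both p38 genotypes. It was 10.3, 17.4, 21.1 and 14.2 CPM in WT p38+/+ mice and 53.4, 26.3, 37.1 and 21.4 CPM in AD p38+/+ mice. The log2 fold change was 1.07 (SE 0.31, limma adjusted p = 0.269). In p38KO mice Rtp4 was 16.6, 38.6, 21.7 and 16.6 CPM in WT and 55.0, 63.7, 56.3 and 36.3 CPM in AD mice, with a log2 fold change of 1.22 (SE 0.31, limma adjusted p = 0.125). Only WT p38KO mouse 2 reached into the AD range. The interaction for Rtp4 was 0.15 (95% interval -0.76 to 1.06), and the APP/PS1 main effect was 1.14 (SE 0.22, limma adjusted p = 0.0104). AD p38KO against AD p38+/+ mice gave a log2 fold change of 0.66 (95% interval 0.02 to 1.31, limma unadjusted p = 0.0444, adjusted p = 0.708).

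**Figure D1:**
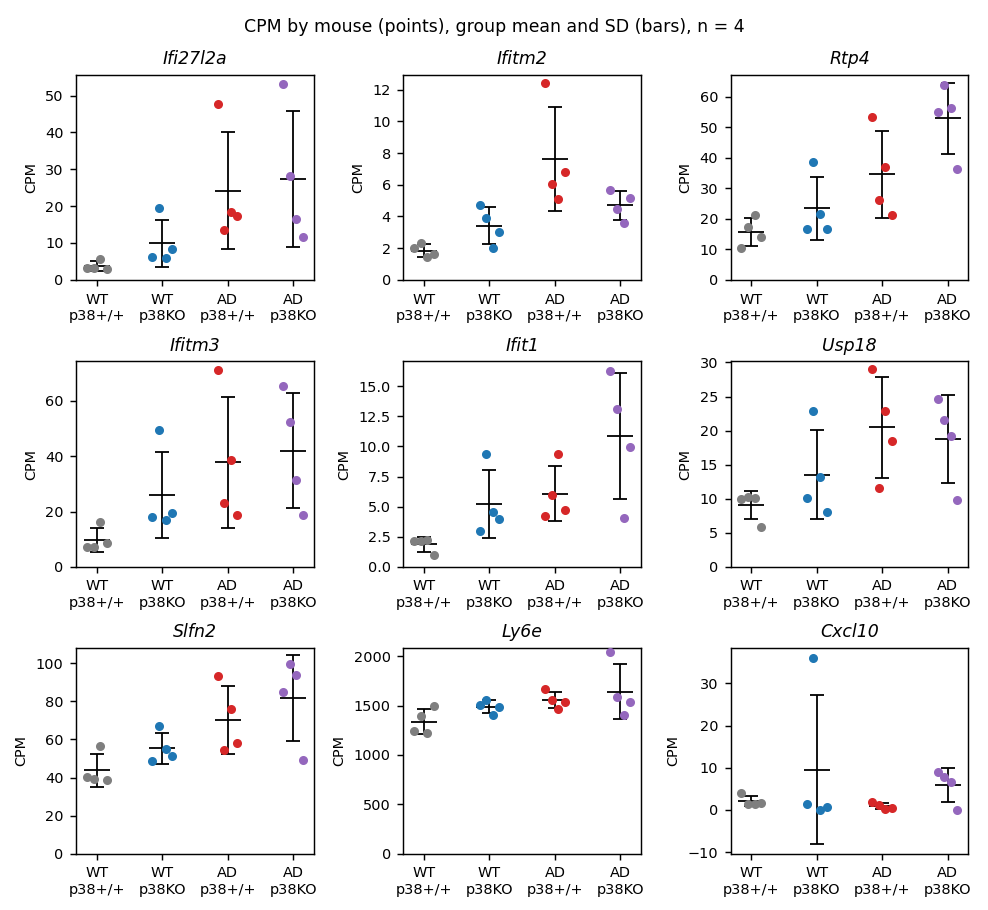
CPM of 9 members by group (x axis), each point 1 mouse, with the group mean and SD (n = 4) as bars. In AD p38+/+ mice Ifi27l2a lay at 13.4 to 47.8 CPM against 3.02 to 5.62 CPM in WT p38+/+ mice, and Cxcl10 shows a single WT p38KO mouse at 36.1 CPM.

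Most of the other members also had positive fold changes, which did not pass the test. With p38α, 49 of the 58 had a positive log2 fold change in AD against WT mice, with a median of 0.67 (-0.01 over all 13912 genes). At an unadjusted p under 0.05, 20 members were higher and 2 lower in limma, beside 4.69% and 2.42% of all genes. Without p38α, 40 of the 58 were positive, with a median of 0.23 (-0.04 over all genes), and the 8 higher and 1 lower at an unadjusted p under 0.05 stand beside 3.76% and 5.8% of all genes. Over both genotypes, 51 were positive, with a median of 0.31 (-0.03 over all genes), and 23 were higher and 2 lower at an unadjusted p under 0.05, beside 6.25% and 5.76%. Groups of 4 that did not overlap were seen for 11 members between AD and WT p38+/+ mice, all higher in AD (Usp18, Ifit1, Ifit3, Ifi204, Ifi209, Ifitm2, Ifitm3, Ly6a, Irgm1, Ifi27l2a and Rtp4), beside 3.36% of all genes. Between AD and WT p38KO mice 1 member, Xaf1, was higher without overlap, beside 2.6% of all genes. The test of the difference between genotypes called 0 members (limma), beside 0% of all genes. At an unadjusted p under 0.05 it gave 2, Ifitm2 and Ifit3b, both with a smaller AD difference in p38KO mice, beside 2.46% of all genes, and 0 with a larger one, beside 1.47%.

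**Figure D2:**
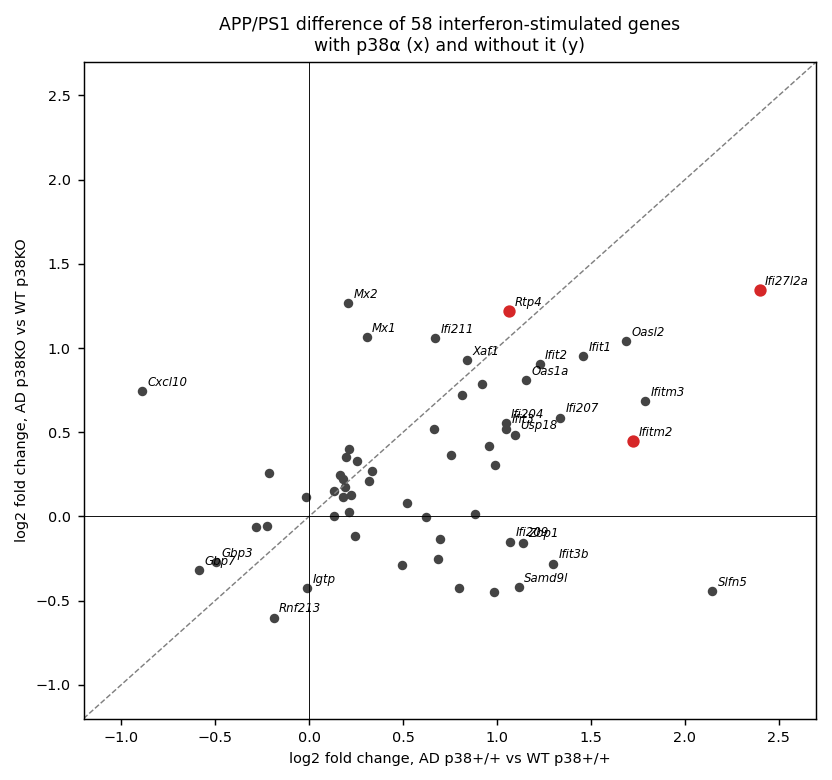
Log2 fold change of AD against WT mice with p38α (x axis) and without it (y axis) for the 58 members, each point 1 gene, the dashed line marking equal values. Red points are the 3 called members, and most points lie right of 0 on the x axis (49 of 58), with Rtp4 near the dashed line and Ifitm2 well below it.

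Members that run the pathway itself came first in role. Irf9, the DNA-binding partner of STAT2, had the highest mean CPM of these, at 81.9, 87.1, 92.6 and 72.5 CPM in WT p38+/+ mice and 108.3, 92.9, 80.3 and 101.4 CPM in AD p38+/+ mice. In p38KO mice Irf9 was 83.9, 86.2, 103.7 and 65.6 CPM in WT and 95.6, 143.0, 135.2 and 43.2 CPM in AD mice. Its groups overlapped throughout (APP/PS1 main effect 0.18, limma adjusted p = 0.772), and Stat2, its partner, gave 0.07 (limma adjusted p = 0.944). Usp18, the protease that removes ISG15 from proteins and dampens the receptor, was 9.93, 10.2, 10.1 and 5.91 CPM in WT p38+/+ mice and 29.0, 11.5, 22.9 and 18.5 CPM in AD p38+/+ mice. All 4 AD values of Usp18 lay above the WT values (exact permutation test, p = 0.0286), while limma gave a main effect of 0.79 (unadjusted p = 0.00473, adjusted p = 0.177). Irf7, the factor that amplifies interferon transcription, had a main effect of 0.85 (limma unadjusted p = 0.00889, adjusted p = 0.224). Isg15, a ubiquitin-like modifier, ranged from 1.64 to 3.70 CPM in WT p38+/+ mice and from 2.83 to 9.97 CPM in AD p38+/+ mice, which overlapped.

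The IFIT proteins bind foreign RNA ends. All 4 of them were higher in AD than WT mice with p38α at an unadjusted p under 0.05 in limma, beside 4.69% of all genes. Of the 4, 0 passed adjustment. Ifit3 shares 31.7% of its 100-base windows with Ifit3b, so the 4 are not fully separate measures. Ifit3 was 15.6, 13.6, 12.9 and 14.4 CPM in WT p38+/+ mice and 58.3, 17.9, 33.2 and 22.4 CPM in AD p38+/+ mice, with no overlap. In p38KO mice Ifit3 was 20.5, 47.6, 18.6 and 19.6 CPM in WT and 80.7, 33.3, 29.4 and 19.5 CPM in AD mice, with overlap. Ifit1 had the smallest p among the uncalled members, with a main effect of 1.21 (SE 0.29, limma adjusted p = 0.0573). Its values were 2.17, 2.13, 2.20 and 0.964 CPM in WT p38+/+ mice, 3.01, 9.39, 4.52 and 3.94 CPM in WT p38KO mice, 4.21, 6.00, 9.36 and 4.75 CPM in AD p38+/+ mice and 16.3, 13.1, 4.04 and 9.95 CPM in AD p38KO mice. WT p38+/+ mice were thus the lowest for Ifit1, below every mouse of the other 3 groups. Ifit2 had a main effect of 1.07 (limma adjusted p = 0.121). Ifit3b, of which 27.4% of the 100-base windows are shared with Ifit3, had an interaction of -1.58 (limma unadjusted p = 0.0140, adjusted p = 1.00).

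For sensors of RNA and enzymes acting on double-stranded RNA, the median log2 fold change between AD and WT mice was 0.24 with p38α, beside 1.26 for the IFIT and 0.98 for the OAS proteins. Without p38α it was 0.21, beside 0.71 for the IFIT and 0.01 for the OAS proteins, so the order against the OAS proteins was turned, and differences between these lists were not tested. Adar, which edits adenosine to inosine in double-stranded RNA, was 91.3, 109.98, 94.5 and 86.5 CPM in WT p38+/+ mice, 90.9, 103.2, 112.1 and 78.6 CPM in WT p38KO mice, 118.1, 105.6, 113.0 and 92.5 CPM in AD p38+/+ mice and 109.7, 124.4, 132.1 and 90.8 CPM in AD p38KO mice. These groups overlapped, with a main effect of 0.21 (SE 0.10, limma unadjusted p = 0.0492, adjusted p = 0.415). The sensor genes Ddx58 (RIG-I) and Ifih1 (MDA5) had main effects of 0.31 (limma adjusted p = 0.399) and 0.27 (limma adjusted p = 0.514). Dhx58 (LGP2), Eif2ak2 (the kinase PKR), Zbp1 (a sensor of Z-form nucleic acid) and Helz2 (a helicase) had main effects from 0.02 to 0.49, none with an unadjusted p under 0.05 in limma.

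The transcripts of Adar are given one by one, and differences between them were not tested. ENSMUST00000029563, with 1152 codons, was 34.1, 40.8, 34.4 and 31.1 CPM in WT p38+/+ mice and 49.8, 47.1, 49.9 and 43.4 CPM in AD p38+/+ mice, without overlap. In p38KO mice it was 38.1, 38.9, 42.9 and 35.6 CPM in WT and 53.8, 55.9, 59.8 and 41.8 CPM in AD mice, where AD p38KO mouse 4 lay within the WT range. Its APP/PS1 main effect was 0.43 (SE 0.10, limma adjusted p = 0.0916 over 34323 transcripts). ENSMUST00000107405, with 1178 codons, gave 0.01 (SE 0.13) and ENSMUST00000098924, with 930 codons, gave 0.11 (SE 0.21), each with groups that overlapped. Adar was chosen for this view after the values were seen, and the division of reads among its transcripts is an estimate of the authors' software. Of the 125 member transcripts tested, 3 were called for the APP/PS1 main effect, those of Ifi27l2a, Rtp4 and Ifitm2, all higher, beside 0.341% of all transcripts.

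**Figure D3:**
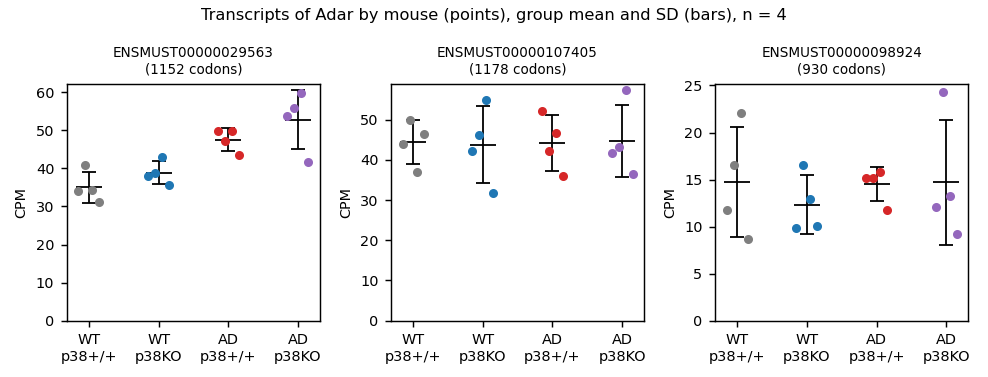
CPM of the 3 main Adar transcripts by group (x axis), each point 1 mouse, with mean and SD (n = 4). ENSMUST00000029563 was 43.4 to 49.9 CPM in AD p38+/+ against 31.1 to 40.8 CPM in WT p38+/+ mice, while the other 2 transcripts overlapped.

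OAS enzymes make the 2′-5′ oligoadenylates that activate RNase L. Oasl2, an OAS-like member of the family, was 3.84, 7.85, 6.91 and 3.60 CPM in WT p38+/+ mice, 6.92, 20.2, 2.66 and 8.31 CPM in WT p38KO mice, 49.0, 7.31, 27.9 and 10.2 CPM in AD p38+/+ mice and 19.7, 25.1, 17.9 and 7.58 CPM in AD p38KO mice. AD p38+/+ mice 1 and 3 stood far above mice 2 and 4, which lay near the WT range. The main effect of Oasl2 was 1.36 (SE 0.41, limma unadjusted p = 0.00362, adjusted p = 0.155). Oas1a gave 0.98 (limma adjusted p = 0.303), Oas2 0.45 (limma adjusted p = 0.836), Oas3 0.19 and Oasl1 0.27. Oas1a shares 40.9% of its 100-base windows with Oas1g. Oas3 only just met the filter, at 1 CPM or more in 4 libraries.

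PYHIN proteins bind DNA in the nucleus and cytosol. Ifi204 was 6.58, 7.48, 7.13 and 3.25 CPM in WT p38+/+ mice and 29.9, 8.21, 11 and 9.17 CPM in AD p38+/+ mice, without overlap. In p38KO mice Ifi204 was 7.85, 27.2, 8.16 and 6.54 CPM in WT and 24.0, 11.6, 13.8 and 15 CPM in AD mice. Without WT p38KO mouse 2 the latter groups would not overlap. In p38+/+ mice, with single libraries left out, the log2 fold change of Ifi204 was lowest at 0.64, without AD p38+/+ mouse 1. It was highest at 1.24, without AD p38+/+ mouse 2. Ifi211 gave a main effect of 0.86 (limma adjusted p = 0.299), Ifi207 0.96 (limma adjusted p = 0.594) and Ifi209 0.46, and 56.9% of the 100-base windows of Ifi211 occur in other genes.

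All 5 membrane proteins had positive fold changes between AD and WT mice with p38α, with a median of 0.99 on the log2 scale. Ly6e, a lipid-anchored protein that limits entry of coronaviruses, was the most abundant member per length, at 398 CPM per kilobase of exon over all mice, followed by Ifitm3 at 42.6. Ly6e was 1244, 1395, 1220.4 and 1495 CPM in WT p38+/+ mice, 1505, 1561, 1407 and 1485.5 CPM in WT p38KO mice, 1667, 1554, 1466 and 1539 CPM in AD p38+/+ mice and 2039.7, 1591, 1400.3 and 1533 CPM in AD p38KO mice. AD p38+/+ mice all exceeded 3 of the 4 WT p38+/+ mice, and the main effect was 0.17 (limma adjusted p = 0.328). Ifitm3, the restriction factor related to Ifitm2, was 7.25, 7.06, 16.3 and 8.55 CPM in WT p38+/+ mice and 71.0, 22.9, 38.8 and 18.8 CPM in AD p38+/+ mice, with a main effect of 1.24 (SE 0.32, limma adjusted p = 0.0794). In p38KO mice Ifitm3 was 18.1, 49.4, 16.8 and 19.5 CPM in WT and 65.3, 52.3, 31.5 and 18.7 CPM in AD mice. Bst2 (tetherin, which holds virions at the cell surface) gave 0.65 (limma adjusted p = 0.139), and Ly6a (Sca-1) gave 0.30 (limma adjusted p = 0.79).

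Among the dynamin-like and immunity-related GTPases the direction was mixed. Irgm1, an immunity-related GTPase of membranes and autophagy, was 76.4, 70.5, 65.3 and 79.6 CPM in WT p38+/+ mice, 77.6, 108.6, 85.8 and 72.7 CPM in WT p38KO mice, 116.1, 83.3, 79.9 and 92.7 CPM in AD p38+/+ mice and 89.6, 125.4, 96.0 and 103.4 CPM in AD p38KO mice. Its main effect was 0.30 (limma unadjusted p = 0.00978, adjusted p = 0.235). The guanylate-binding proteins Gbp7 and Gbp3, which interferon gamma also induces, pointed down, with main effects of -0.45 (limma adjusted p = 0.244) and -0.38 (limma adjusted p = 0.305). Gbp2 gave 0.28, and the antiviral GTPases Mx1 and Mx2 gave 0.68 and 0.74, none with an unadjusted p under 0.05 in limma. Igtp (IRGM3) gave a log2 fold change of -0.46 in AD p38KO against AD p38+/+ mice (limma unadjusted p = 0.0202, adjusted p = 0.664), and AD p38KO mouse 4 held its lowest value, 38 CPM. Without that mouse the log2 fold change of Igtp was -0.24 (limma adjusted p = 0.808).

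For the ubiquitin and ADP-ribose enzymes the median fold change between AD and WT mice with p38α was 0.08 on the log2 scale. Dtx3l, an E3 ligase that pairs with PARP9, was 154.0, 107.9, 142.9 and 111.9 CPM in WT p38+/+ mice, 128.4, 124.4, 141.1 and 139.4 CPM in WT p38KO mice, 112.7, 127.8, 142.3 and 124.8 CPM in AD p38+/+ mice and 121.5, 137.7, 151.3 and 171.6 CPM in AD p38KO mice, overlapping throughout. Trim30a, which restrains Toll-like receptor signalling, gave a main effect of 0.29 (limma adjusted p = 0.352) and Rnf213, a very large E3 ligase, gave -0.39 (limma adjusted p = 0.613). The ligases Trim25, which activates RIG-I, and Herc6, which attaches ISG15, and the ADP-ribosyltransferases Parp9, Parp12 and Parp14 gave -0.17 to 0.20.

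Slfn2, a Schlafen protein that keeps immune cells quiescent, had a main effect of 0.59 (SE 0.15, limma adjusted p = 0.0810). It was 40.1, 39.3, 56.7 and 38.8 CPM in WT p38+/+ mice, 48.5, 67.1, 54.8 and 51.1 CPM in WT p38KO mice, 93.2, 54.3, 76.0 and 58.1 CPM in AD p38+/+ mice and 84.7, 99.5, 94 and 49.3 CPM in AD p38KO mice. Slfn8 had the highest mean CPM of its role list, at 70.7, 80.3, 48.8 and 41.1 CPM in WT p38+/+ mice, 66.5, 71.4, 58.5 and 68.4 CPM in WT p38KO mice, 82.8, 49.0, 75.9 and 53.2 CPM in AD p38+/+ mice and 57.0, 75.2, 88.4 and 76.5 CPM in AD p38KO mice, with groups that overlapped. Slfn5 gave 0.85 (limma adjusted p = 0.664) and Samd9l, which restricts translation, gave 0.35. Among nucleotide and mitochondrial proteins, Xaf1, a pro-apoptotic partner of XIAP, gave 0.88 (limma adjusted p = 0.0810). Rsad2 (viperin, which makes a chain-terminating nucleotide) gave 0.77 (limma adjusted p = 0.378), and its neighbour Cmpk2, a nucleotide kinase, gave 0.31. Among the remaining members, the nuclear body protein Sp100 gave 0.56 (limma adjusted p = 0.293), Phf11d 0.28 (limma adjusted p = 0.546) and Ifi44 0.10.

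Cxcl10, a chemokine that attracts T cells, had a main effect of -0.07 (limma adjusted p = 0.984). It was 3.99, 1.46, 1.44 and 1.54 CPM in WT p38+/+ mice, 1.46, 36.1, 0 and 0.645 CPM in WT p38KO mice, 1.94, 1.17, 0.282 and 0.426 CPM in AD p38+/+ mice and 9.10, 7.88, 6.60 and 0.0678 CPM in AD p38KO mice. WT p38KO mouse 2 was thus the highest of all 16, and 3 of 4 AD p38KO mice exceeded every AD p38+/+ mouse. The log2 fold change of AD p38KO against AD p38+/+ mice was 1.69 (limma adjusted p = 0.789).

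**Figure D4:**
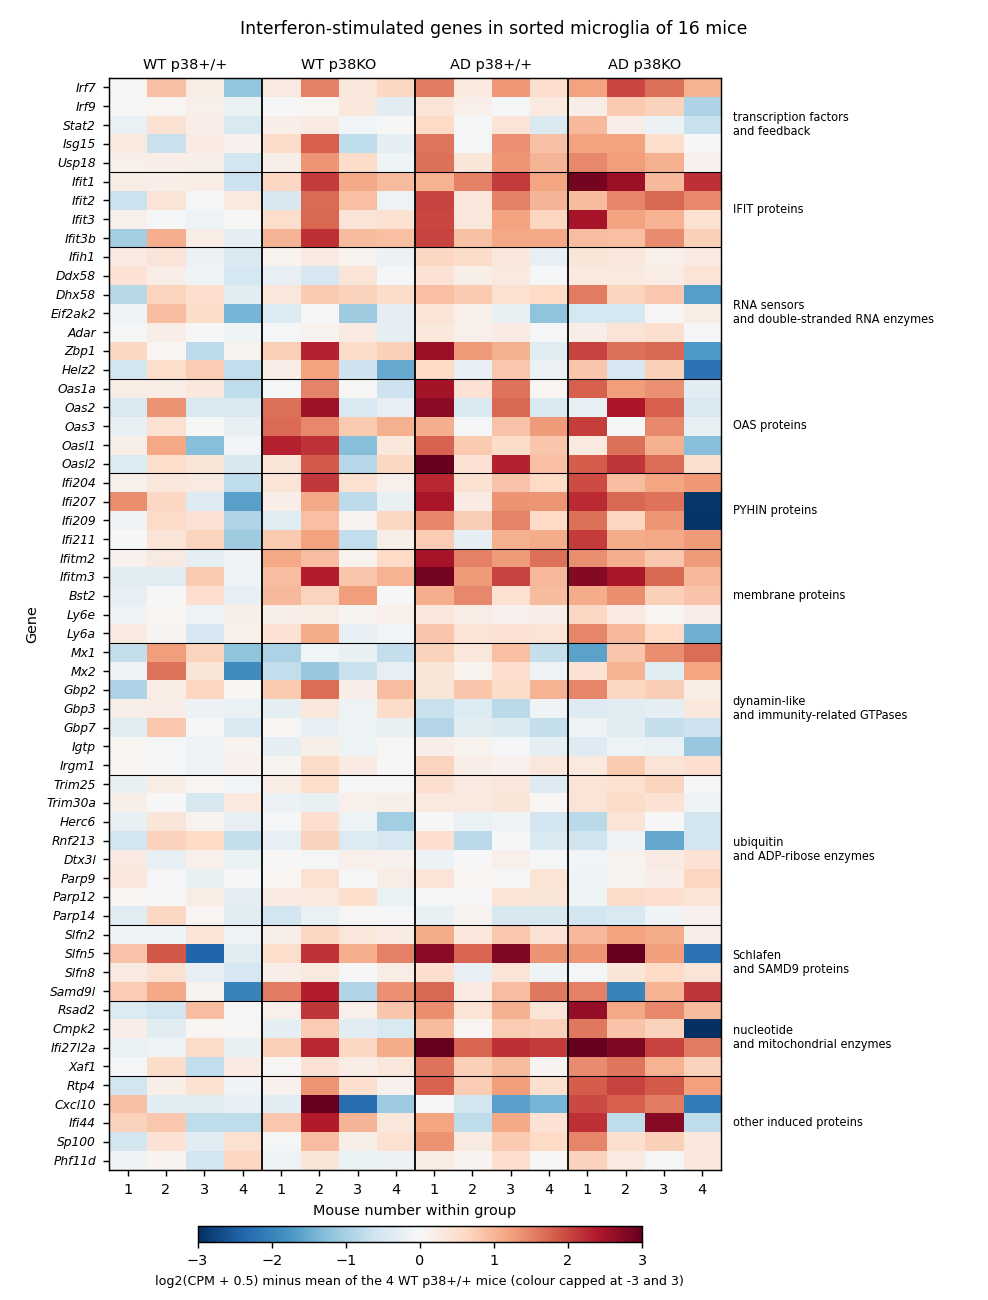
Log2(CPM + 0.5) of the 58 members (rows, by role) in 16 mice (columns, by group) minus the mean of the 4 WT p38+/+ mice, red higher and blue lower, with colour capped at -3 and 3. WT p38KO mouse 2, AD p38+/+ mice 1 and 3 and AD p38KO mice 1 to 3 are red over most rows. AD p38KO mouse 4 is blue where members are listed at 0, as for Ifi207 and Cmpk2.

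Many members were high or low together in the same mice of a group. WT p38KO mouse 2 was the highest of its group for 44 of the 58 members, beside 29.7% of all genes. AD p38+/+ mouse 1 was the highest of its group for 40 (33.7% of all genes) and AD p38KO mouse 1 for 27 (25.3%). AD p38KO mouse 4 was the lowest of its group for 33 (32.8%), with 7 members listed at 0 (Zbp1, Oas2, Oas3, Oasl1, Ifi207, Cmpk2 and Ifi44). The median difference of the members from the WT p38+/+ mean was 0.91 on the log2 scale in WT p38KO mouse 2 and 0.11 to 0.18 in the other 3 of its group. It was 0.92, 0.25, 0.78 and 0.39 in AD p38+/+ mice and 1.05, 0.81, 0.77 and 0.22 in AD p38KO mice. Over all genes the same median stayed between -0.07 and 0.09 in every mouse. The 3 mice with the largest member medians, AD p38KO mouse 1, AD p38+/+ mouse 1 and WT p38KO mouse 2, were labelled female, while WT p38+/+ mouse 1 (-0.04) and WT p38KO mouse 1 (0.18), also labelled female, were not high. With sex as a covariate 6 members were called for the APP/PS1 main effect, and in the 11 male mice alone 1 was (limma). In the same mice the border-associated macrophage markers summed to 26.8, 139.7 and 83.7 CPM, the highest of the group in AD p38+/+ mouse 1 and the lowest in AD p38KO mouse 1. The 14 immediate early and heat shock genes summed to the highest value of the group in all 3 of these mice, at 941.2 CPM in AD p38KO mouse 1 (others 873.3 to 903.5), 1388.0 CPM in AD p38+/+ mouse 1 (others 981.9 to 1053.2) and 1364.2 CPM in WT p38KO mouse 2 (others 831.9 to 1272.7). Their highest sum of all, 1922.4 CPM, was in WT p38+/+ mouse 1, whose member median was -0.04. The part of either list in the member medians was not tested.

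**Figure D5:**
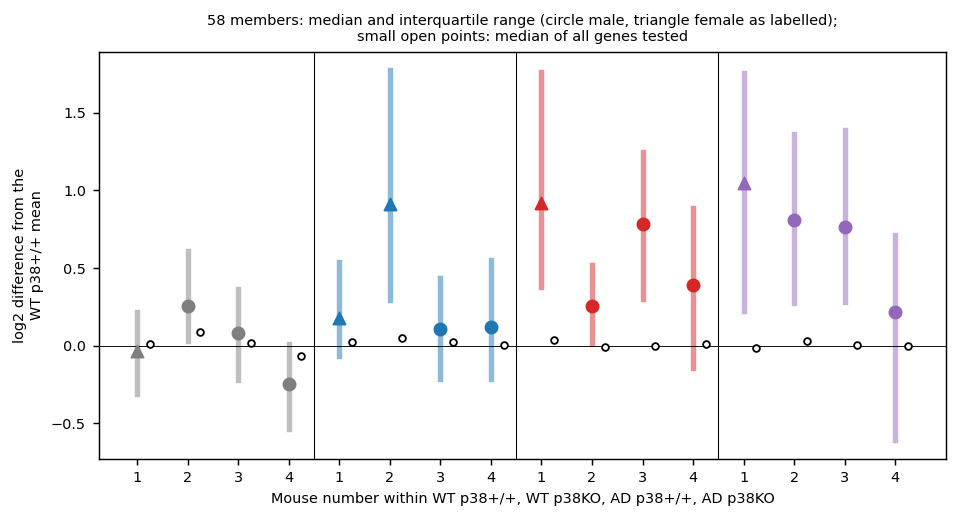
Median (large point) and interquartile range (bar) of the 58 members' log2 differences from the WT p38+/+ mean in each mouse, by group along the x axis, with circles for males and triangles for females as labelled and small open points for all 13912 genes. Medians ran from -0.25 to 1.05 for the members and from -0.07 to 0.09 for all genes.

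After subtracting group means, 37 of the 58 members had a correlation over 0.5 with the mean of the other members across the 16 mice, 15 lay between 0 and 0.5, and 6 were negative, with a median of 0.61. This describes shared variation only, since all points share libraries and depth, and no such correlation was computed for all genes. Oas1a (0.92), Usp18 (0.89) and Oasl2 (0.87) followed the rest most closely. The negative correlations were -0.50 for Dtx3l and -0.27 for Gbp3. They were weak for Parp9 (-0.15), Parp14 (-0.11), Parp12 (-0.053) and Ddx58 (-0.051). Of the called members, Rtp4 (0.79) and Ifi27l2a (0.78) followed it closely and Ifitm2 (0.41) less so.

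Loss of p38α was compared within each background, against the same groups that serve in the comparisons of AD with WT mice. In WT mice, 45 of 58 members were higher in p38KO mice, with a median log2 fold change of 0.28 (0.02 over all genes). At an unadjusted p under 0.05, 8 were higher and 0 lower in limma, beside 1.97% and 1.56% of all genes, and 0 were called, beside 0.00719% of all genes called in either direction. Ifit1, Ifit3, Oas3, Ifitm3 and Ifi27l2a were higher in all 4 WT p38KO than in all 4 WT p38+/+ mice, 5 members beside 1.4% of all genes. Oas3 reached 1 CPM in 2 WT p38KO, 2 AD p38KO and 0 p38+/+ libraries, so it passed the filter through the p38KO groups alone and its direction is no support. Without WT p38KO mouse 2 the median was 0.11. In AD mice, 34 of 58 were higher in p38KO mice, with a median of 0.05 (-0.02 over all genes), and 0 were called, beside 0.0503% of all genes called in either direction. At an unadjusted p under 0.05, Rtp4 was higher and Igtp lower, beside 2.33% and 4.66%. Ifitm2 gave -0.58 (95% interval -1.23 to 0.08) and Ifi27l2a 0.13 (95% interval -0.85 to 1.10). No member was without overlap between these groups (1.32% of all genes were higher in all 4 AD p38KO mice). The median was -0.01 without AD p38KO mouse 1 and 0.18 without AD p38KO mouse 4. Averaged over both backgrounds, 45 members were higher in p38KO mice, with a median of 0.17, 5 were higher and 0 lower at an unadjusted p under 0.05 (2.71% and 3.19% of all genes), and 0 were called, beside 0.0791% of all genes.

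The calls between AD and WT mice with p38α depended on single libraries, while the fold changes stayed positive. With each library left out in turn, the log2 fold change ran from 2.01 to 2.61 for Ifi27l2a and from 1.48 to 1.88 for Ifitm2. Both were lowest without AD p38+/+ mouse 1. Ifi27l2a lost its call without WT p38+/+ mouse 1, 2 or 4 or AD p38+/+ mouse 1, 3 or 4 (limma adjusted p from 0.0502 to 0.144), and Ifitm2 without WT p38+/+ mouse 3 or 4 or AD p38+/+ mouse 1 (0.052 to 0.0993). In male mice alone, adjusted p was 0.0746 for Ifi27l2a and 0.230 for Ifitm2 in limma.

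Genes of the pathway outside the 58 were examined in the same fit. All 17 interferon genes listed, Ifnb1 and Ifng among them, have no row in the gene table and were not analysed here. The receptor genes Ifnar1 (147.1 to 208.5 CPM) and Ifnar2 (308.3 to 421.8 CPM) had APP/PS1 main effects of -0.02 (limma adjusted p = 0.953) and 0.10 (limma adjusted p = 0.581). Of the 103 tested genes on the pathway lists, 2 rose for the main effect and 0 fell, beside 0.927% and 0.101% of all genes. Among them were 67 other interferon-stimulated genes. Their median log2 fold change of AD against WT mice was 0.19 with p38α, 0.03 without it and 0.07 over both. For the 58 members these medians were 0.67, 0.23 and 0.31, so the list does not stand for all interferon-stimulated genes. Ifi27, the relative of Ifi27l2a, lay at 36.8 to 44.9 CPM in WT and 49.4 to 70.6 CPM in AD mice (0.52, SE 0.09, limma adjusted p = 0.00719), and all 8 AD mice were above all 8 WT mice. Lgals3bp, a secreted galectin-binding glycoprotein, lay at 178.1 to 373.9 CPM in WT and 395.2 to 868.0 CPM in AD mice (0.91, SE 0.17, limma adjusted p = 0.00758), again without overlap. Of the 58 members, 0 were higher in all 8 AD than in all 8 WT mice. The share of all genes separated in this way is not given here. In the pairwise comparisons 0 of the 103 were called in limma; at an unadjusted p under 0.05, 7 were higher and 1 lower between AD and WT p38+/+ mice (4.69% and 2.42% of all genes), and 10 and 4 between AD and WT p38KO mice (3.76% and 5.8% of all genes).

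Marker genes of other cells and states moved beside these differences. The 16 genes of disease-associated microglia summed to 18205 to 23777 CPM in WT and 25165 to 31521 CPM in AD mice. Of the 6 markers of plasmacytoid dendritic cells, cells known for making interferon, 5 had a row, and they summed to 12.1 to 20.5 CPM in WT and 23.4 to 64.4 CPM in AD mice, highest in AD p38+/+ mouse 1 and AD p38KO mouse 1. Nearly all of that difference was Cox6a2, a cytochrome c oxidase subunit, at 1.44 to 5.33 CPM in WT and 17.4 to 51.1 CPM in AD mice (limma adjusted p = 2.1e-05). Ccr9, a defining marker, lay at 0 to 2.02 CPM, which rests on few reads. The 3 markers tested had APP/PS1 main effects from -0.49 to 2.52 on the log2 scale, with a median of 0.44. The part of these cells or states in the member differences was not tested.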

How the data were processed

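The authors aligned paired-end reads from sorted microglia to mm10 with STAR and quantified Ensembl transcripts in Partek Flow 10.0.22.0828. The deposited values are CPM (reads scaled to the total assigned in each library) with 0.0001 added by the authors; read counts were not recovered. The tables hold 20267 genes and 61144 transcripts, and 0 columns were left without a mouse. Members, lists and tests were chosen with earlier results of these data known.

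From these values log2(CPM + 0.5) was computed for features reaching 1 CPM in 4 or more libraries, which left 13912 genes and 34323 transcripts. All 16 libraries were fitted with limma 3.58.1 (R 4.3.3, trended empirical Bayes, two-sided, Benjamini-Hochberg over all features), which was also tested on simulated data. Main effects average both levels of the other factor. Single genes used an exact permutation test. Values by mouse are given for called members and for the member with the highest mean CPM of each role; Usp18, Ifit1, Ifitm3, Slfn2 and Cxcl10 were added after their values were seen. Of the others, the 2 with the smallest APP/PS1 p per role are named with their p. Shared sequence was counted in 100-base windows of GENCODE M21 transcripts. Alternatives were other pseudocounts, filters and scalings, array weights, sex or S0-label covariates, a replicate block, summed transcripts, and fewer libraries. Replicate numbers were not used to pair mice in the main fit. Other steps used pandas 2.3.3 with numpy 2.4.6 in Python 3.11.15, and figures matplotlib 3.10.9. 1 gene of the pathway lists is not reported here.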

Additional observations from a re-analysis of the deposited data

Results flagged for a closer look

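Of 84 groups of 4 mice examined (21 members in 4 groups), 13 held a mouse whose gap to the next value, divided by the range of the group, exceeded Dixon's 95% critical value for 4 samples. Chance flags about 1 in 20 groups where values are normal and genes are chosen beforehand. That rate may not hold here, since the gap was taken on CPM and not on the log scale. Usp18, Ifit1, Ifitm3, Slfn2 and Cxcl10 were also added after their values were seen. The members share variation between mice, so the groups are not independent. WT p38KO mouse 2 stood above the rest of its group for Cxcl10 (36.1 CPM, others up to 1.46), Ifitm3 (49.4 CPM, others up to 19.5), Ifit3 (47.6 CPM, others up to 20.5) and Ifi204 (27.2 CPM, others up to 8.16). AD p38+/+ mouse 1 stood above its group for Ifi27l2a (47.8 CPM, others up to 18.3) and Ifi204 (29.9 CPM, others up to 11). Among WT p38+/+ mice, mouse 4 lay below the others for Usp18 (5.91 CPM), Ifit1 (0.964 CPM) and Oas1a (3.60 CPM). In the same group mouse 3 lay above for Ifitm3 (16.3 CPM), Slfn2 (56.7 CPM) and Ifi27l2a (5.62 CPM), and mouse 1 for Cxcl10 (3.99 CPM).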

How the results depend on the processing

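All 73 named-gene fold changes kept their sign in 2300 of 2300 alternative values, but the counts of called members moved. These 73 were chosen for an unadjusted p under 0.05 in the main limma fit of the same libraries. A change of sign was therefore unlikely from the start, and the kept signs are no separate support. Members called between AD and WT p38+/+ mice (2) became 1 with 0.0001 CPM as the pseudocount, 1 with only the groups compared, and 0 in male mice only, and ranged from 0 to 2 with single libraries left out, at 0 without WT p38+/+ mouse 4 or AD p38+/+ mouse 1. Members called for the APP/PS1 main effect (3) became 6 with array weights, 6 with sex as a covariate, 7 with the replicate block and sex, and 1 in male mice only, and ranged from 3 to 6 with single libraries left out, at 6 without WT p38KO mouse 2 or AD p38KO mouse 4; the replicate block alone left 3, and changed no other count. Ifitm2 lost the main-effect call in males (limma adjusted p = 0.120) and without AD p38KO mice 1 and 4 (0.0719), and Rtp4 in males (0.0632). Member transcripts called (3) were 1 in males and 1 to 4 with single libraries left out, at 1 when mouse 1 of any group, mouse 4 of either WT group, mouse 3 of WT p38KO or AD p38+/+, or mouse 2 of AD p38KO was dropped. Between AD and WT p38KO mice, 0 to 1 member was called, Rtp4 without WT p38KO mouse 2 (limma adjusted p = 0.0473); in the other comparisons 0 were called throughout. With single libraries left out, the member median ran from 0.52 to 0.79 (AD against WT with p38α), 0.15 to 0.47 (without p38α, lowest without WT p38KO mouse 4, highest without AD p38KO mouse 4), 0.26 to 0.55 (main effect, 0.52 without WT p38KO mouse 2, highest without AD p38KO mouse 4), -0.01 to 0.18 (p38KO against p38+/+ in AD), 0.11 to 0.37 (in WT, lowest without WT p38KO mouse 2), 0.09 to 0.25 (p38 KO main effect, lowest without WT p38KO mouse 2) and -0.45 to -0.05 (interaction, nearest 0 without WT p38KO mouse 2). The median of the interaction was 0.0567 in male mice only, so its direction is not settled. The cause of these shifts was not tested. Same-numbered mice deviated together with correlations from -0.13 to 0.18 (over 0.1 in 2 of 24 pairs). Of the 24, 8 correlated best with their own number. Within a background these were numbers 1, 3 and 4 in WT mice (0.18, 0.081 and 0.13). In AD mice they were numbers 1, 2 and 4 (0.066, 0.059 and 0.069). Whether numbers pair mice within a background is therefore not settled, and the main fit did not pair them. Depth limits members under about 1 CPM, where 1 CPM is 12.3 to 16.4 reads.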
